A study of Caenorhabditis elegans with 2 samples.

Results

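The 5 actin genes of Caenorhabditis elegans, act-1, act-2, act-3, act-4 and act-5, were examined in a chromatin immunoprecipitation (ChIP-seq) map of the T-box transcription factor TBX-2. They were chosen by name, as 5 of 19985 protein-coding genes. Worms of the strain OP159, of genotype unc-119(ed3) III; wgIs159, stably express TBX-2 fused at its C terminus to GFP-FLAG. Whole hermaphrodites were taken as L3 larvae, 48 h after synchronization as starved L1, and chromatin was sonicated and pulled down through the GFP tag. There were 2 biological replicates of 1 group, and no other genotype, stage or control precipitation was analysed here, so no condition could be compared. Whole worms were used, so cells in which TBX-2 sits at a site cannot be told from cells in which it does not.

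Actin is the globular protein that polymerizes into thin filaments. In muscle these filaments slide along myosin, and in other cells they form the cortex, the contractile ring and the core of microvilli. In C. elegans act-1, act-2 and act-3 lie in a cluster and are used in body wall muscle and in the early embryo, act-4 is a muscle actin encoded elsewhere, and act-5 builds the microvilli of the intestine. TBX-2 is known for its part in making pharyngeal muscle.

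For each replicate the authors deposited a list that runs from strong peaks down into background, with 28366 entries for replicate 1 and 30000 for replicate 2. A similar list of 30000 entries covers the pooled replicates, and 1631 entries passed the authors' threshold on the irreproducible discovery rate, a measure of how far the ranks of replicates match. Each entry has a summit and a signal value, given by the authors' peak caller on a scale of its own list. The 1631 thresholded entries were the strongest 1631 of the pooled entries, and the weakest of them had a signal value of 91.0, against a pooled median of 26.0. With no read counts in these lists, depth is unknown. The window of a gene reached 2000 bp upstream and 200 bp downstream from each of its transcript 5′ ends in Ensembl, and coordinates are those of ce11 (WBcel235).

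Thresholded summits lay in the windows of 3 actin genes, act-4, act-2 and act-3, and in no window of act-1 or act-5. Of all coding genes, 7.29% had such a summit in the window, and 8.3% had one in the window or the gene body. By chromosome the share was 4.79% on V, which holds the cluster, 8.71% on X, which holds act-4, and 10.4% on III, which holds act-5. Genes with several transcript starts have more window, and of those with 2 or more distinct 5′ ends, as act-3 and act-4 have, 11.1% had a thresholded summit. The 3 actin genes cannot be tested against that share, since the genes were proposed with results of these data known. Act-4 had the strongest entry, in its long first intron, with a pooled signal value of 193. Act-2 followed with 118.0 upstream of its start and act-3 with 117.7 far upstream of its start, and the replicates put these last 2 genes in opposite order. Act-1 had 55.4 in its window, below the threshold, although a thresholded entry of 102 lay just past its 3′ end. Act-5 had nothing above 30.8 in its window or body.

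The sequences at the 5 thresholded summits, and at the strongest summit in the act-1 window, are shown because they are the places where the actin genes differ in signal. Each runs along the plus strand of ce11, up to 75 bp to each side of the summit, and stops before any annotated exon of a coding gene. Capitals mark TATAAA, the CArG box bound by serum response factor, and the T-box core GGTGTG, here read on the opposite strand as CACACC. The letters are those of the RefSeq WBcel235 genome.
act-4 intron, chrX:4962409-4962559: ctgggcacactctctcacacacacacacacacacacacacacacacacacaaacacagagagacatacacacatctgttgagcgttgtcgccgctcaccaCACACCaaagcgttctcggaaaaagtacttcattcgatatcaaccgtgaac
act-4 start, chrX:4960509-4960620: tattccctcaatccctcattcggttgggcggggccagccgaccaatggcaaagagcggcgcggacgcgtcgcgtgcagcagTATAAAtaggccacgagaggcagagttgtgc
between act-3 and act-2, chrV:11076308-11076458: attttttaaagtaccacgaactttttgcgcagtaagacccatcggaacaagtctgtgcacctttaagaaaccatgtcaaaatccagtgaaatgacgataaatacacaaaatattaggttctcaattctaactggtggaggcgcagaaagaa
act-2 upstream, chrV:11078508-11078658: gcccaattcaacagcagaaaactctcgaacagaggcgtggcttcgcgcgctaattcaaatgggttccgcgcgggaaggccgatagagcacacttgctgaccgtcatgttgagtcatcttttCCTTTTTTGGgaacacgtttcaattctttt
past the end of act-1, chrV:11082618-11082768: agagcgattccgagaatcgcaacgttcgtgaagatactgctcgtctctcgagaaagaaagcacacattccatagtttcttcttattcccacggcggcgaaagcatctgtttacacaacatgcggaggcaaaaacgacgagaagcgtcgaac
act-1 upstream, chrV:11080409-11080559: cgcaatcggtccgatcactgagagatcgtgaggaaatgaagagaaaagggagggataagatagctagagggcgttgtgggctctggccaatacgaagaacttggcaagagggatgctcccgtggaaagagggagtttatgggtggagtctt

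The intronic act-4 sequence holds a run of 18 ca units and, 25 bp from the summit, the only GGTGTG core within 100 bp of the 5 thresholded summits. Among such windows of all 1631 thresholded summits, 7.48% held GGTGTG on either strand. The longer form GGTGTGA, which contains that core, was in none of the 5 and in 0.981% of all. The act-4 start sequence was rich in G and C (60.7%) and held TATAAA 6 bp to the right of the summit, which is 31 bp before the annotated transcript start. TATAAA stood in 12.4% of thresholded windows and in 32.8% of the 29785 stretches of 250 bp upstream of coding transcript starts. The act-2 sequence held a CArG box 46 bp from its summit, a site found in 0.797% of thresholded windows. The sequence between act-3 and act-2 had the lowest share of G and C (37.7%), and none of the 7 sites searched was within 100 bp of its summit. GAGAGA was in 2 of the 5 windows against 41.6% of all, the E-box CANNTG in 3 against 57.6%, and the GATA site TGATAA in none against 10.2%. All sites were searched on both strands, and a match describes letters only. Outside these windows, the 250 bp before the act-1 start held GGTGTGA at 198 bp, as did 2.02% of such stretches, with no pooled summit there. GGTGTG stood 6 bp before the shorter act-4 transcript and 156 bp before the shorter act-3 transcript, against 6.72% of such stretches. It also stood 20 bp from a weak pooled summit in the act-4 intron, with a signal value of 19.7. GGTGTGA stood 12 bp from a pooled act-5 summit of 17.9, so the core was not limited to strong entries.

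Act-4 lies on the plus strand of X at 4960621 to 4964413 and has a longer transcript and a shorter one, which starts within the gene at 4962875. The coding sequence of the longer transcript begins at 4960662, before the intron, and that of the shorter one at its own 5′ end. The strongest entry, X 4962422 to 4962628 with its summit at 4962484, was in the intron, 391 bp upstream of the start of the shorter transcript. Its pooled signal value of 193 ranked 461. Replicate 1 gave it 100.5, at rank 534, with a summit 7 bp away. Replicate 2 had a pair of overlapping entries there. The stronger had a signal value of 99.5 at rank 375 and a summit 109 bp to the left on the plus strand, and the other had 54.2 at rank 1186 and a summit 91 bp to the right. Both replicates thus placed this site high, and replicate 2 split it. The entry was 207 bp wide, while 63.2% of thresholded entries had the width of 420 bp.

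The other thresholded entry of act-4, X 4960374 to 4960793, had its summit 37 bp upstream of the longer transcript. Its pooled signal value of 97.5 ranked 1465 of 1631, close to the end of the list. Replicate 1 gave it 58.2, at rank 1352, and replicate 2 gave it 37.4, at rank 2303, with summits 3 and 1 bp away. The position was thus the same to a few bases in both replicates, and the rank in replicate 2 was below the top 1631. Having 2 or more thresholded summits in window or body was seen in 0.931% of coding genes, and act-4 was the only actin gene with them. The remaining 5 pooled entries of its window and body had signal values from 19.7 to 41.4. The strongest of these, ranked 6215, lay in the untranslated exon at the 3′ end, where act-4 meets the convergent gene M03F4.6. A summit in the body was seen in 2.15% of coding genes in the thresholded list, and act-4 alone had one among the actins. No pooled summit lay in an act-4 coding exon.

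**Figure D1:**
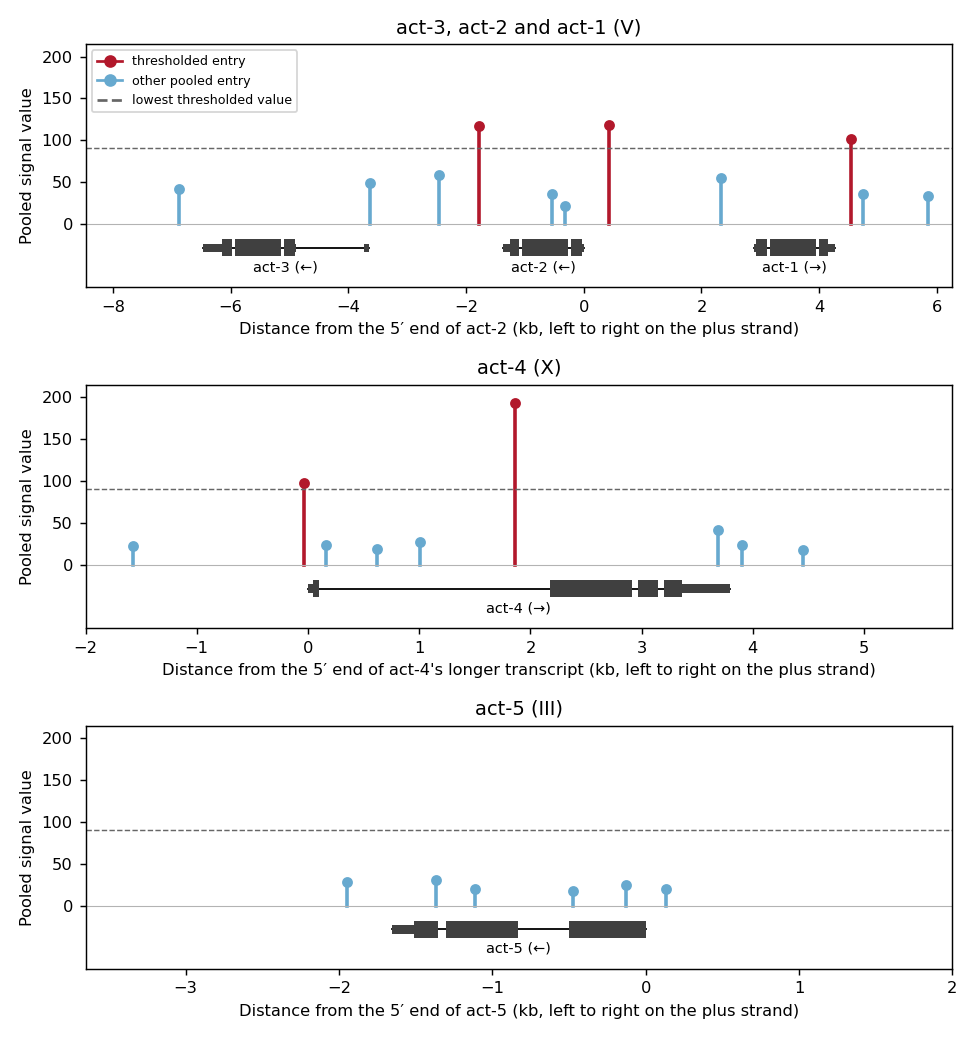
Pooled signal value (vertical axis) of every pooled entry within 2000 bp of the actin genes, by distance in kb from a transcript 5′ end (horizontal axis). Red stems are thresholded entries, blue stems are the others, the dashed line is the lowest thresholded value (91.0), and tall and low boxes are coding and untranslated exons. The cluster has 3 red stems, all outside the gene bodies, act-4 has 2, and act-5 has none.

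Act-3, act-2 and act-1 span 10726 bp of chromosome V, at 11071690 to 11082415. Act-3 and act-2 lie on the minus strand and act-1 on the plus strand, so that act-2 and act-1 share a divergent upstream gap of 2897 bp. The gap between the end of act-2 and the start of act-3 is 2278 bp. Within 2000 bp of the cluster, a stretch of 14726 bp, 3 thresholded entries were found, with none inside a gene body, whereas the strongest act-4 entry was in its body. Centred on a coding gene, a stretch of about 14726 bp held 3 or more thresholded summits for 1.04% of coding genes.

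In the divergent gap, act-2 had a thresholded entry and act-1 did not. The act-2 entry, V 11078373 to 11078792, had its summit 429 bp upstream of the act-2 start, over the noncoding genes T04C12.18 and T04C12.24. Pooled, its signal value was 118.0, at rank 1078. Replicate 1 gave it 79.4, at rank 793, and replicate 2 gave it 37.2, at rank 2325. The value in replicate 1 was 2.13 times that in replicate 2. It was set beside the 950 pooled entries within 500 ranks that had a summit in both replicates within 100 bp. Of these, 4.32% had a ratio as high. The entry nearer to act-1, V 11080274 to 11080693, had its summit 568 bp upstream of the act-1 start. Its signal value was 55.4 pooled, at rank 3661, 35.7 in replicate 1, at rank 3107, and 27.6 in replicate 2, at rank 4087. All lists thus placed it below the top 1631. The summit lay over T04C12.16 and T04C12.25, and the 151 bp shown above hold no marked site. A window of 500 bp upstream holds no pooled entry for act-1.

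The act-3 entry was the most even between replicates of the 3 thresholded entries of the cluster. It lay at V 11076192 to 11076483 in the gap between the genes, 1885 bp upstream of the longest act-3 transcript and 394 bp past the end of act-2. Its nearest coding transcript start was that of act-2, 1771 bp away. Pooled, its signal value was 117.7, at rank 1081. Replicate 1 gave it 69.1, at rank 1010, and replicate 2 gave it 51.2, at rank 1302. Of the 3 thresholded entries of the cluster it alone was in the top 1631 of both replicates, as were 1152 (70.6%) of all thresholded entries. It counts for act-3 only in a window of 2000 bp from the longer Ensembl transcripts, which start at 11074498 and 11074494. RefSeq starts act-3 at the shorter transcript, and the entry is then outside its window. The entry at the longer act-3 start itself, 25 bp upstream, reached 49.5 in the pooled list, at rank 4437, 29.1 in replicate 1 and 23.3 in replicate 2.

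A further entry between act-3 and act-2, V 11075481 to 11075900, differed most between replicates among the entries near the actin genes with a summit in both. Pooled, its signal value was 58.7, at rank 3306. It was 56.4 in replicate 1, at rank 1426, and 11.3 in replicate 2, at rank 22648. Replicate 1 had it in its top 1631, and replicate 2 had it below its own median of 14.5. Of the 820 pooled entries within 500 ranks of it that had a summit in both replicates within 100 bp, 0.610% had a ratio as high. This entry was singled out after its values were seen, and it lies over the noncoding genes T04C12.15 and T04C12.21.

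Past the end of act-1 lay the remaining thresholded entry, V 11082483 to 11082902, with its summit 278 bp past the gene end and over T04C12.29. It had a pooled signal value of 102, at rank 1360. Replicate 1 gave it 71.3, at rank 963, and replicate 2 gave it 40.4, at rank 1977. Replicate 1 had another entry beside it, of 46.4 at rank 1980, with no summit of replicate 2 within 100 bp of the matching pooled summit. The nearest coding transcript start to the thresholded summit was that of act-1 itself, 1641 bp away. A thresholded summit within 1000 bp past the gene end was seen in 2.25% of coding genes. Act-2 had one as well, the entry between act-2 and act-3.

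**Figure D2:**
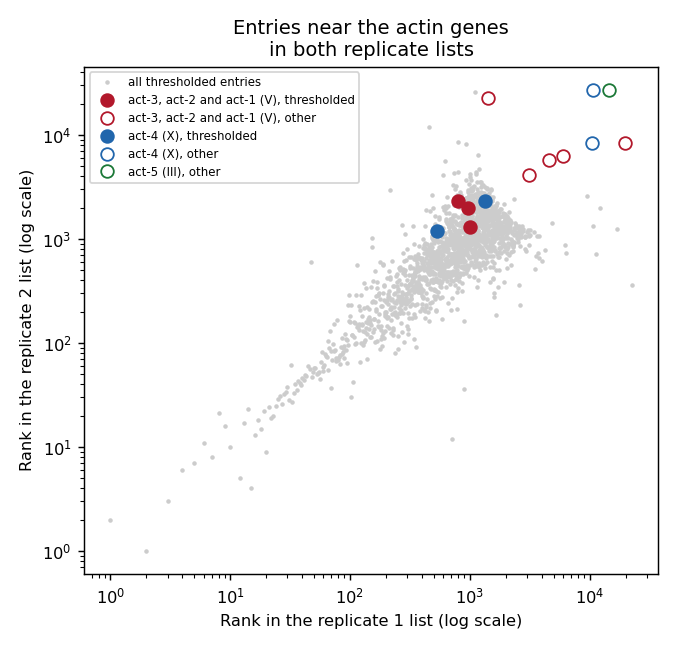
Rank in the replicate 1 list (horizontal axis, log scale) against rank in the replicate 2 list (vertical axis, log scale) for pooled entries near the actin genes with a replicate summit within 100 bp in both. Filled circles are thresholded, open circles are not, and grey points are the 1566 of all 1631 thresholded entries with such summits in both. The leftmost open circle is the entry between act-3 and act-2 with ranks 1426 and 22648, and the intronic act-4 entry is drawn at the replicate 2 rank of 1186.

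Act-5, on the minus strand of III at 13604412 to 13606066, is annotated with no untranslated bases at its 5′ end, so its window is counted from the first coding base. Its pooled entries numbered 5 in window and body. In the window the strongest had a signal value of 24.9, at rank 16136, with 16.6 in replicate 1, at rank 14454, and 9.95 in replicate 2, at rank 26957. The strongest in the body had 30.8, at rank 10986, with 10.8 in replicate 1 and no summit of replicate 2 within 100 bp. The pooled values are near the median of the whole list, 26.0, which includes background. Any pooled entry in the window was found for 44.6% of coding genes and in the body for 38.8%. The 250 bp upstream of act-5 hold TATAAA at 72 and 37 bp and TGATAA at 233 and 128 bp before the first coding base. TGATAA, found in 26.1% of such stretches, also stood before act-1, act-2 and the shorter act-4 transcript, and TATAAA before the longer act-4 transcript and the shorter act-3 transcript.

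By strongest pooled window entry, act-4 placed 457 among 19985 coding genes, act-2 placed 1003, act-3 placed 1006, act-1 placed 2656 and act-5 placed 6396. Replicate 1 gave the order act-4, act-2, act-3, act-1, act-5, with places 521, 759, 932, 2351 and 6146. Replicate 2 gave act-4, act-3, act-2, act-1, act-5, with places 352, 1169, 1782, 2672 and 8874. Act-2 and act-3 thus changed order between replicates, while act-4 was ahead of both, and act-1 and then act-5 behind, in each list. No test of these differences was made, and the places describe these libraries.

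**Figure D3:**
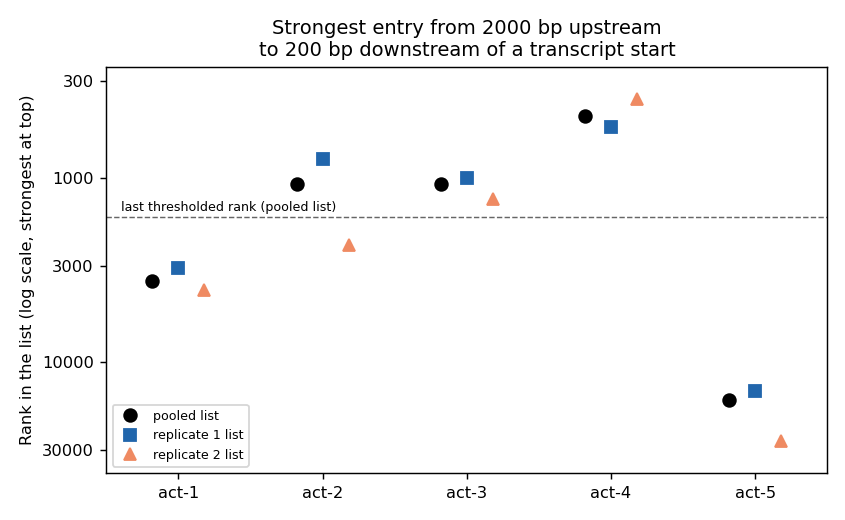
Rank of the strongest window entry of each actin gene in the pooled list and in each replicate (vertical axis, log scale, strongest at the top). The dashed line is rank 1631, the last thresholded one. The 3 points of act-4 are at the top and those of act-5 at the bottom, and act-2 has points on both sides of the line.

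The sequence around the thresholded summits was nearly all unique in the genome, and the coding exons of the cluster were not. Act-1 and act-3 had identical coding sequences of 1128 bp, with 0 differing bases. The coding sequence of act-2 differed from that of act-1 at 43 bases and that of act-4 at 66, and the encoded proteins at 3 and 1 of 376 residues. Act-5 was the most distant, with 29 residues differing from act-1 over the alignment (92.3% identity). Of the 1023 words of 36 bases within the coding exons of act-1, 0 occurred once in the genome, and the same held for act-3. For act-2, 57.7% of such words occurred once, for act-4 81.1% and for act-5 98.5%. With words of 50 bases the share stayed at 0% for act-1 and act-3 and was 68.1% for act-2. All 1965 words upstream of act-1 over 2000 bp occurred once, as did those upstream of act-2, act-3 and the longer act-4 transcript. Around the 5 thresholded summits all 166 words were unique except at the intronic act-4 summit, where 5 were repeated. These occurred from 5 to 1151 times in the genome.

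No pooled summit lay in the coding exons of act-1 or act-3, 2 lay in those of act-2 and 4 in those of act-5. The act-2 entries had signal values of 35.6 and 21.9, each found in a single replicate within 100 bp. The labels do not give the read length or how reads with several matches were treated, and the part of repeated sequence in the missing entries was not tested. Reads from the identical exons cannot be assigned to act-1 or act-3 by sequence, so values within them would be uncertain for either gene. Pooled entries were denser near the actin genes than the genome average of 0.299 per kb, with 0.747 per kb at the cluster, 1.15 at act-4 and 1.06 at act-5. The entries at act-5 had signal values of only 17.9 to 30.8. Density was not computed for like stretches around other coding genes, so these values do not set the actin genes apart from them.

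**Figure D4:**
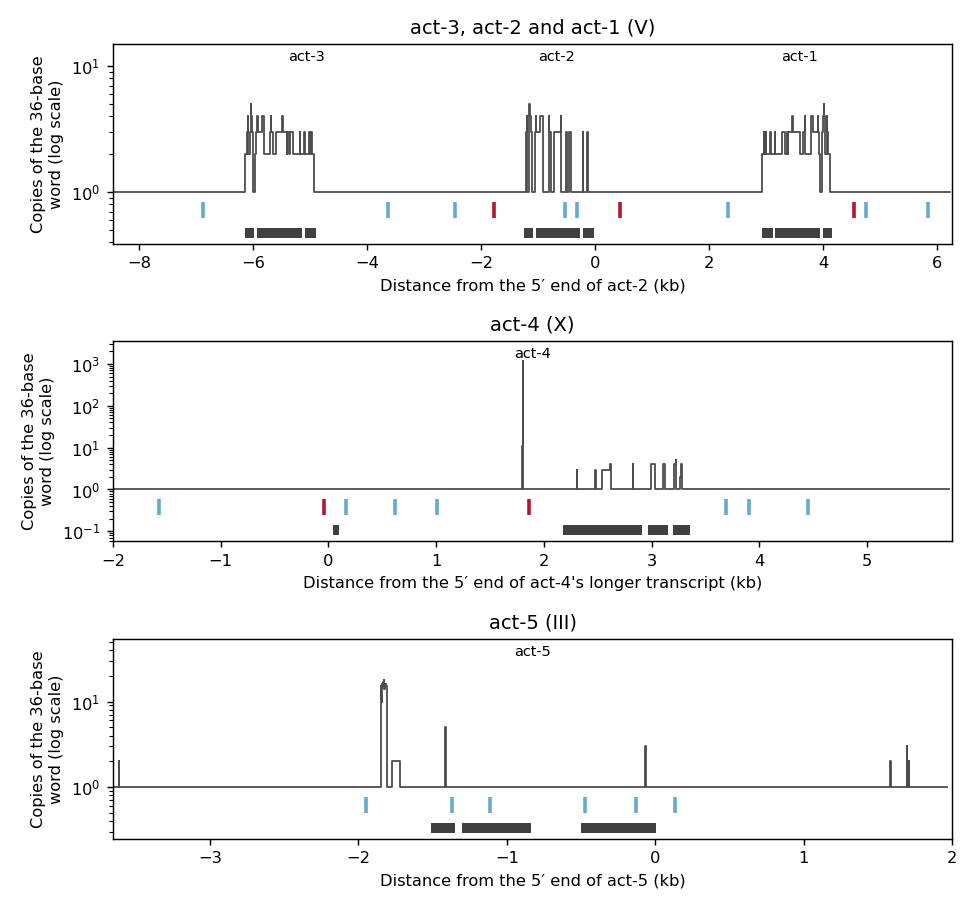
Number of times each word of 36 bases occurs in the genome (vertical axis, log scale, both strands) along the actin loci, by distance in kb from a transcript 5′ end. Red and blue ticks mark thresholded and other pooled summits, and dark boxes mark coding exons. Words are repeated along the whole coding sequence of act-1 and act-3 and the red ticks lie beside these blocks, while the spike in the act-4 intron is the ca repeat.

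Most genes with which actin works were without a thresholded summit in the window, as were most coding genes. Of 97 such genes, 12 (12.4%) had one, against 7.29% of all coding genes. Over coding genes with 2 or more distinct 5′ ends the share was 11.1%, and the list was not matched for number of starts. Of these 12, 6 were among the 14 genes of actin folding, and the shares of the other groups ran from 0% to 13.3%. The strongest pooled entry had a median signal value of 44.5 over the 68 list genes with one, and 35.1 over all coding genes with one. None of the 5 actin-related protein genes had a thresholded summit. The same held for the 10 genes for monomer binding and disassembly, cofilin and profilins among them. Groups this small cannot be told from a share of 7.29%. Among 8 capping genes cap-2, a capping protein subunit, had a summit 223 bp upstream with a signal value of 462. Among 16 genes of nucleation wve-1, a subunit of the WAVE complex that activates Arp2/3, had one of 375, although R06C1.4 has the nearer start. Among 15 cross-linkers and anchors the spectrin genes spc-1 and unc-70 had 274 and 208. In the gene body, unc-70 and fli-1 had a thresholded summit, the only 2 of all 97 list genes, against 2.15% of all coding genes.

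The thin filament group had 1 gene with a thresholded summit. So did the myosin and thick filament group, which includes nonmuscle myosins. Counts of 1 cannot tell these shares from the 7.29% of all coding genes. Of 13 thin filament genes 1 (7.69%), the calponin-like cpn-3, had a summit, with a signal value of 128, and the troponin genes and the tropomyosin gene lev-11 had none. Of 16 myosin and thick filament genes 1 (6.25%), the nonmuscle myosin nmy-2, had one, of 131, and T22C1.1 has the nearer start. No muscle myosin gene of that group had a thresholded summit. Any pooled entry was found for 11 of these 16 genes and, at a like share, for 68 of all 97 list genes, against 44.6% of all coding genes. Among the 14 genes of actin folding 6 had a thresholded summit, namely cct-8 with 457, cct-1 with 348, pfd-1 with 236, cct-7 with 142.3, pfd-6 with 141.6 and pfd-3 with 107. They encode subunits of the chaperonin and of prefoldin, which fold actin and tubulin. For cct-1, cct-7, cct-8 and pfd-1 another gene has the nearer transcript start. The lists were drawn up with earlier results of these data known, and no test was made of them.

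**Figure D5:**
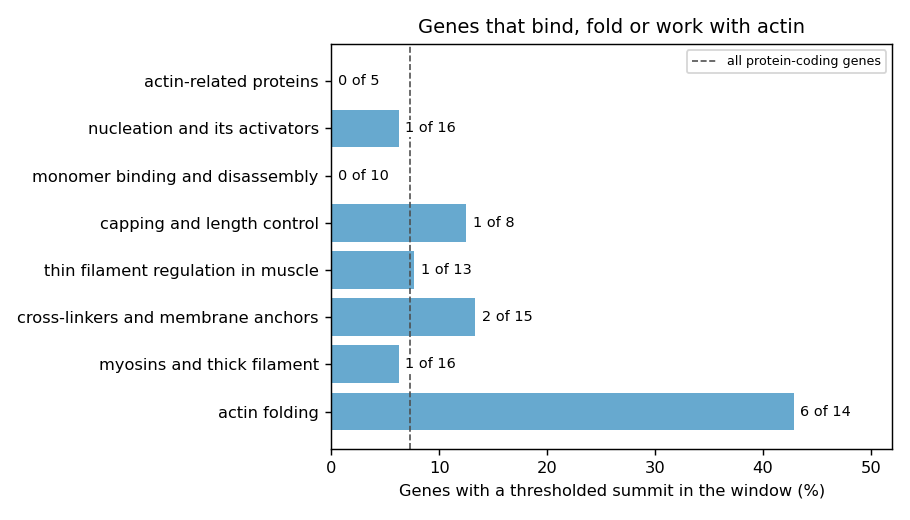
Share of genes (horizontal axis, %) with a thresholded summit in the window around a transcript start, by group of genes that bind, fold or work with actin. Counts stand beside the bars, and the dashed line is the share of all coding genes (7.29%). The bar of the folding genes, 6 of 14, is the longest.

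The coding genes of most similar values were found by the distance in log2 signal value over the pooled and both replicate lists, across 6709 genes with an entry in all 3. For act-4 these were F13C5.2, cyp-37A1 and aco-2, at distances of 0.035 to 0.063. For act-3 they were akap-1, tin-9.1 and F55F8.3. For act-2 they were Y54E10BR.2, sec-11 and rpb-7, which share a summit. For act-1 they were mop-25.1, acs-17 and nhr-86, and for act-5 str-249, srlf-7 and igeg-2. Likeness here is of 3 numbers from 2 libraries and their pool.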

How the data were processed

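ChIP-seq of TBX-2 with a GFP tag was deposited as narrowPeak lists, per the deposited file listing. The signal value of each entry, and the −log10 q value, come from the authors' peak caller. The sources used here give no aligner, caller or settings. A further parent file of the ranked lists, of unstated kind, and the possible controls in the labels were not analysed here. The thresholded lists were made by the authors from the ranked lists.

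Lists on ce11 were placed on WBcel235 with Ensembl release 115 transcripts (Python 3.11.15, pandas 2.3.3, Biopython 1.88), and 0 entries passed a chromosome end. Assignment was by summit and was checked on constructed data. Ranks are by signal value. Replicate summits were matched within 100 bp. The −log10 q values were read, and no result given here uses them. Words of 36 and 50 bases were counted on both strands. Lists on ce10 were matched by chromosome, width, summit offset and signal value, with no conversion of coordinates.

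The members and lists were chosen with earlier results of these data known. Named genes were the actins, list genes with a thresholded summit (up to 6 per group) and the 3 nearest in signal values. No test was made: there is 1 group of 2 replicates, and no condition to compare. Protein identity was computed by translating coding exons of the genome.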

Additional observations from a re-analysis of the deposited data

How the results depend on the processing

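The count of actin genes with a thresholded summit, 3 of 5, was 3 with entry overlap in place of the summit and 2 with windows of 1000 or 500 bp upstream or RefSeq starts, where act-3 dropped out. Among the strongest 815 thresholded entries it was 1, act-4. From the strongest 1631 entries of a single replicate it was 2 to 3, with act-2 missing without replicate 1. The list count of 12 was 7 with a window of 500 bp, 10 with 1000 bp and 9 among the strongest 815, and it was 12 in the other settings, each single replicate included. The share of all coding genes fell to 5.41% with the window of 1000 bp, 4.12% with 500 bp and 3.9% among the strongest 815. It was 7.58% with entry overlap, 7.17% with RefSeq starts, 6.87% without replicate 1 and 7.06% without replicate 2.

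The strongest pooled window value of act-3 was 49.5 with either shorter window or RefSeq starts, against 117.7. The other 16 of 19 values under another window, overlap or annotation were the same. Act-1 had no pooled entry within 500 bp, although its entry in replicate 1 had a summit 483 bp upstream. From a single replicate, on that replicate's own scale, the strongest value was 27.6 to 35.7 for act-1, 37.2 to 79.4 for act-2, 51.2 to 69.1 for act-3, 99.5 to 100.5 for act-4 and 9.95 to 16.6 for act-5. Each of the 5 thresholded entries had a counterpart of the same chromosome, width and summit offset and within 0.1% of its value among the 2343 thresholded entries on ce10, whose lowest value was 73.0, above the 55.4 of act-1. Of these 5, 3 had 2 such candidates, so the match is not unique there. No paired analysis was possible because there is 1 group. Depth per replicate is unknown, so no interval can be given for a signal value.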
